A study of Gallus gallus with 8 samples.

Results

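Genes of DNA replication and mitosis were followed in the distal mesenchyme of the chick wing bud, in 24 genes that act before and during S phase and 26 that act in G2 and mitosis. Of these 50 genes, 47 could be matched to a chicken gene through their RefSeq transcripts, whereas MCM7, TYMS and AURKA were not matched and are not analysed here. A gene was used if at least 2 libraries held 10 or more reads for it, which 46 members passed (22 S phase and 24 mitosis genes), of 9692 genes that passed among 14612 matched genes. CENPA, the histone variant of the centromere, had 0 to 7 reads per library and did not pass. The series asks how gene expression in the distal mesenchyme follows the age of the cells and the age of their surroundings. It holds 3 groups, by Hamburger and Hamilton (HH) stage. HH24g (2 libraries) is distal mesoderm of CMV-GFP chicken embryos, in which a viral promoter drives GFP broadly, taken from a strip of 150 µm of HH20 wing buds, stripped of epithelium, placed in slits beneath the apical ectodermal ridge of HH24 wings of wild type hosts and collected 24 h later. HH27 (3 libraries) is untreated wild type distal mesenchyme, which according to the methods came from the opposite wing of the hosts. HH24 (3 libraries) is untreated wild type distal mesenchyme from other embryos. Each library pooled tissue pieces of several embryos, so the p-values measure the spread between pools. The grafts differ from both wild type groups in transgene and in surgery, which cannot be told apart from an effect of age or host.

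Dividing cells copy their DNA once per cycle because origins are licensed in G1, when the origin recognition complex, CDC6 and CDT1 load the ring of MCM proteins, and are fired in S phase, when CDC45 and the GINS complex turn that ring into an active helicase. Polymerases, the PCNA clamp and its loader then make the new strands, with nucleotides supplied by ribonucleotide reductase. In mitosis, cyclin B and CDK1 drive entry, motors and kinetochore proteins build and attach the spindle, the BUB and MAD checkpoint proteins hold back CDC20 and the anaphase-promoting complex, and ANLN and ECT2 organise the cleavage furrow. The distal mesenchyme beneath the ridge is a dividing population from which the skeletal elements of the wing are laid down.

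The libraries held 1697272 to 5095662 estimated reads. After scaling, the reads that matched genes came to 934614 to 3849969 in 7 libraries but to 128271 in HH24 replicate 2, where only 9.24% of reads matched a gene, against 45.5% to 67.6% in the others. The 46 members held 1315 reads in that library and 10503 to 46916 in each of the others, and its log2 levels correlated less with the other libraries (r = 0.69 to 0.72) than those correlated among themselves (0.83 to 0.94). Levels are given as CPM, the count of a gene relative to the matched reads of its library after scaling with TMM, a trimmed mean of the log ratios between libraries. The 6 mesenchyme markers (PRRX1, TWIST1, MSX1, TBX5, LHX9 and PDGFRA) were present in every library, and their summed level was 1605 to 1624 CPM in HH24g, 765 to 1065 CPM in HH27 and 1169 to 1566 CPM in HH24. The 5 myogenic markers had at most 4 reads in any library, with MYOG at 0 in all 8.

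Per unit of length, as a share of the summed TPM (a level corrected for transcript length) of the 46 members within a library, PCNA, the sliding clamp, stood first, with 15.8% on average over the 7 libraries other than HH24 replicate 2 (range 14.97% to 17.5%). CDK1, the kinase of mitotic entry, came next with 7.90% (7.41% to 8.64%), and its range lay wholly below that of PCNA. RRM2 and RRM1, the subunits of ribonucleotide reductase, took 4.77% (4.58% to 5.09%) and 4.08% (3.76% to 4.37%). Between them stood TPX2, a spindle assembly factor, with 4.70%, TOP2A, the topoisomerase that untangles sister chromatids, with 4.41%, and the checkpoint protein BUB3 with 4.35%, and the ranges of these 5 overlapped from one to the next. The licensing factors stood at the other end of the order, CDT1 with 0.295% (0.0972% to 0.570%) and CDC6 with 0.0824% (0.0485% to 0.139%), while the helicase subunits MCM5 and MCM2 took 2.02% and 1.78%.

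None of the 46 members passed the limits used to call a gene (adjusted p under 0.05 over all 9062 genes tested and an absolute log2 fold change over 1, limma on voom-transformed counts) in any of the 3 comparisons. Over all genes tested, the share called was 1.71% for HH24g against HH27, 0.011% for HH24g against HH24 and 1.07% for HH27 against HH24. With edgeR's quasi-likelihood test and with DESeq2 the count of members called was also 0 in each comparison. At an unadjusted p under 0.05, in either direction, limma gave 6 members in HH24g against HH27, 7 in HH24g against HH24 and 9 in HH27 against HH24, while edgeR gave 5, 7 and 7 and DESeq2 gave 5, 6 and 9. Over all genes the share in limma was 17.2% for HH24g against HH27, 11.3% for HH24g against HH24 and 15.3% for HH27 against HH24, and among the members it was 13%, 15.2% and 19.6% in the same comparisons. Without the limit on fold change, limma and edgeR again gave 0 members, and DESeq2 gave 2 in HH24g against HH24, MCM5 with the lower and ANLN with the higher level in HH24g. The intervals show how large a difference could have gone unseen. The 95% interval of the log2 fold change lay inside a 2-fold change in either direction for 43 of 46 members in HH24g against HH27, for 42 in HH24g against HH24 and for 41 in HH27 against HH24. The exceptions were CDC6, CDT1 and CENPF in all 3 comparisons, ECT2 in both comparisons with HH24, and KIF20A in HH27 against HH24. The median absolute log2 fold change of the members was 0.12, 0.16 and 0.12 in these comparisons, beside 0.19, 0.23 and 0.24 over all genes tested. The median standard error (SE) was 0.10, 0.12 and 0.12 for the members and 0.18, 0.25 and 0.24 over all genes. The smaller fold changes of the members came with smaller SE, and do not show that the members were steadier than other genes. In bulk tissue, fewer cells in a phase and less RNA per cell cannot be told apart.

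**Figure D1:**
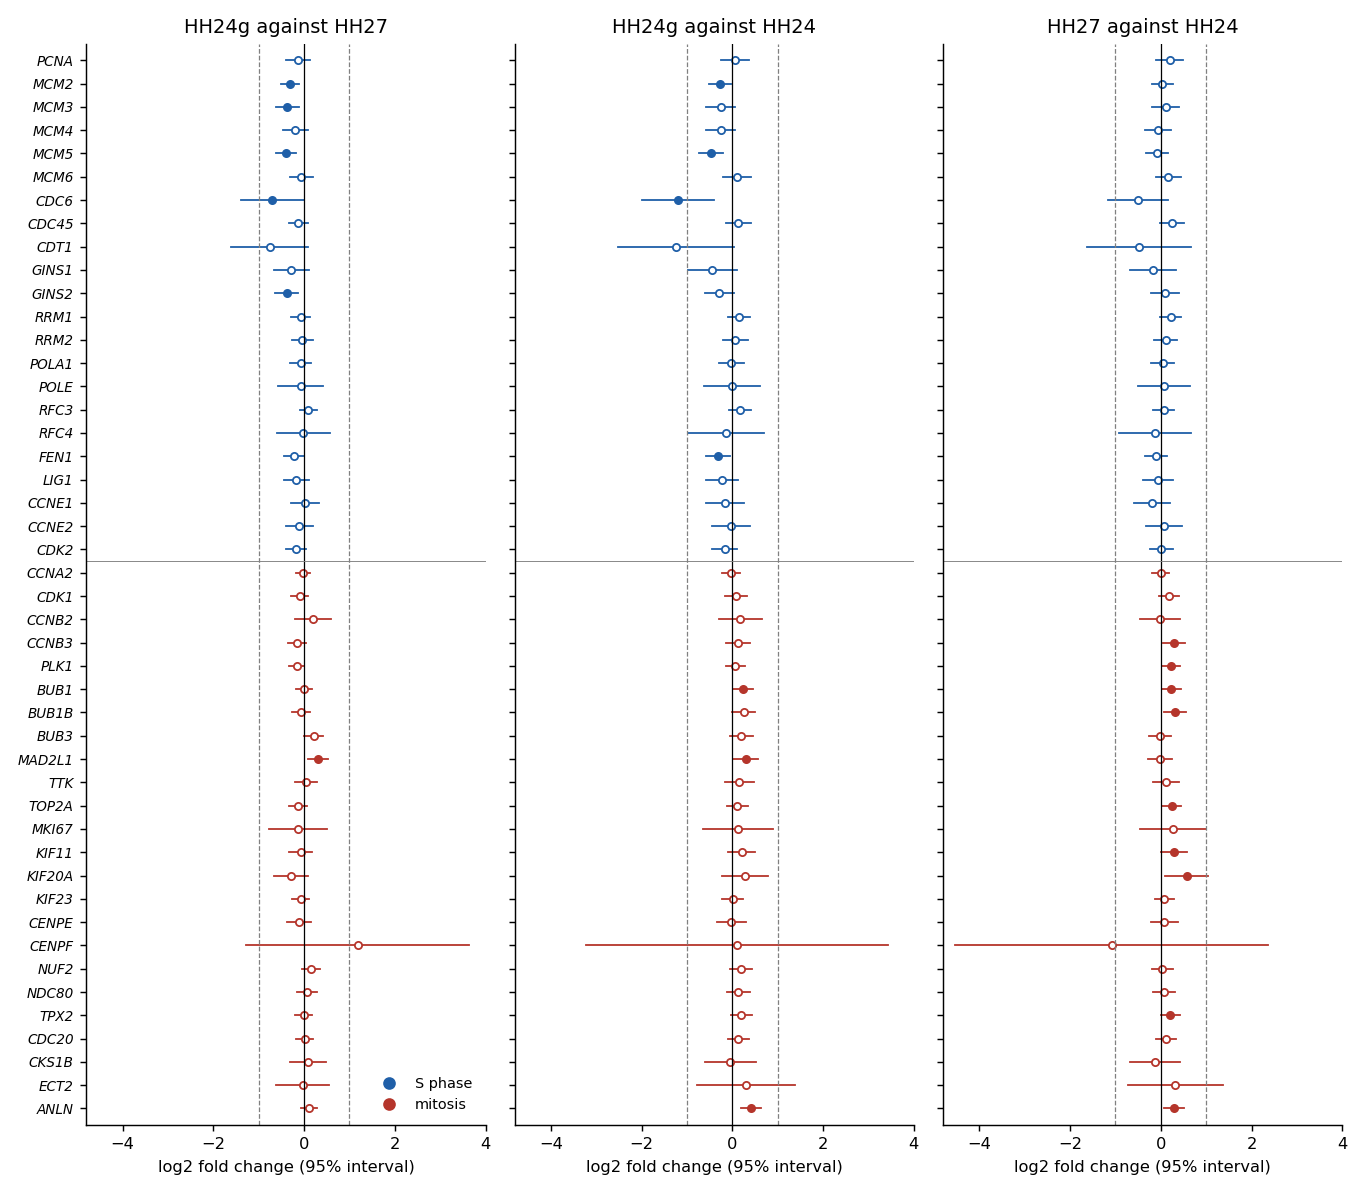
Log2 fold change of the 46 members (rows, S phase genes above the grey line and mitosis genes below it) in the 3 comparisons, with 95% intervals from limma. Filled points have an unadjusted p under 0.05, dashed lines mark a 2-fold change, and all 10 licensing and helicase genes (MCM2 to GINS2) lie left of 0 in HH24g against HH27.

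The 10 members of origin licensing and the helicase stood lower in the grafts as a group, with no single gene past the adjusted threshold in limma over all 8 libraries. With DESeq2, MCM5 passed that threshold in HH24g against HH24. Their summed level was 1398 and 1371 CPM in HH24g, 1655, 1703 and 1608 CPM in HH27, and 1604, 1668 and 1579 CPM in HH24, so both HH24g libraries lay below all 6 wild type libraries. The mean was 1384 ± 18.7 CPM in HH24g (SD, n = 2), 1656 ± 47.5 CPM in HH27 and 1617 ± 46.3 CPM in HH24 (SD, n = 3 each). In HH24g against HH27, 10 of the 10 genes tested had a log2 fold change below 0, with a median of -0.34, where the median over all genes tested was -0.011 and 48.2% of them lay above 0. At an unadjusted p under 0.05, 5 of the 10 (MCM2, MCM3, MCM5, CDC6 and GINS2) had lower levels in HH24g and 0 higher, and edgeR and DESeq2 each gave 4 lower. Over all genes 8.04% had such a p with a lower and 9.15% with a higher level in HH24g. In 6 of the 10 both HH24g libraries lay below all 3 HH27 libraries, a pattern that 16.4% of all genes showed, and 16.3% showed the opposite. Leaving out HH24g replicate 2 left 1 graft library, and 10 of 10 genes were still below 0, with a median of -0.26. Counts of p-values are not given for such a fit. Without HH24 replicate 2, 10 of 10 were below 0 and 4 had an unadjusted p under 0.05 with a lower level in HH24g. Against HH24, 8 of 10 genes were below 0 in HH24g, with a median of -0.28, where 52.5% of all genes lay above 0. Between HH27 and HH24 the 10 genes were split evenly, 5 on either side of 0, with a median of -0.015. The origin recognition complex also acts in licensing but is not among these genes, and its own genes went both ways. In HH24g against HH27 the log2 fold change was -0.40 for ORC1, 0.29 for ORC2 and 1.05 for ORC3 (0 to 55 reads per library). It was 0.20 for ORC4, -0.14 for ORC5 and 0.19 for ORC6.

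MCM5, a subunit of the replicative helicase ring, had 219.6 and 177 CPM in HH24g, 253, 249.6 and 262 CPM in HH27, and 261, 265 and 281 CPM in HH24. Both grafts lay below all wild type libraries. Its log2 fold change was -0.39 (SE 0.10, 95% interval -0.61 to -0.17, adjusted p = 0.0762) in HH24g against HH27 and -0.48 (SE 0.12, 95% interval -0.74 to -0.21, adjusted p = 0.167) in HH24g against HH24, neither past the adjusted threshold, while HH27 against HH24 gave -0.084 with an interval of -0.32 to 0.16. Leaving out HH24g replicate 1 or replicate 2 gave -0.53 or -0.22 against HH27, so the size depended on which graft library was kept. Over 19 alternatives, deposited TPM without scaling set aside, the adjusted p of MCM5 against HH27 ran from 0.0421 to 0.489. MCM2, another subunit of the ring, had 267 and 260.0 CPM in HH24g, 349.9, 349 and 297 CPM in HH27, and 319, 335 and 313 CPM in HH24. The 2 grafts were again the lowest of the 8 libraries. The log2 fold change of MCM2 was -0.31 (SE 0.091, 95% interval -0.52 to -0.10, adjusted p = 0.119) against HH27 and -0.28 (SE 0.11, 95% interval -0.52 to -0.031, adjusted p = 0.385) against HH24. Its adjusted p against HH27 ran from 0.0386, without HH27 replicate 3, to 0.543 over the same alternatives. CDC45, which joins the ring when an origin fires, had 158 and 171 CPM in HH24g, 187, 186 and 171 CPM in HH27, and 144, 109 and 163 CPM in HH24. Here HH24g and HH27 overlapped, HH24 held the 2 lowest libraries, and the log2 fold change was -0.12 (SE 0.10, 95% interval -0.34 to 0.10, adjusted p = 0.580) in HH24g against HH27 and 0.26 (SE 0.12, 95% interval -0.0069 to 0.52, adjusted p = 0.338) in HH27 against HH24.

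**Figure D2:**
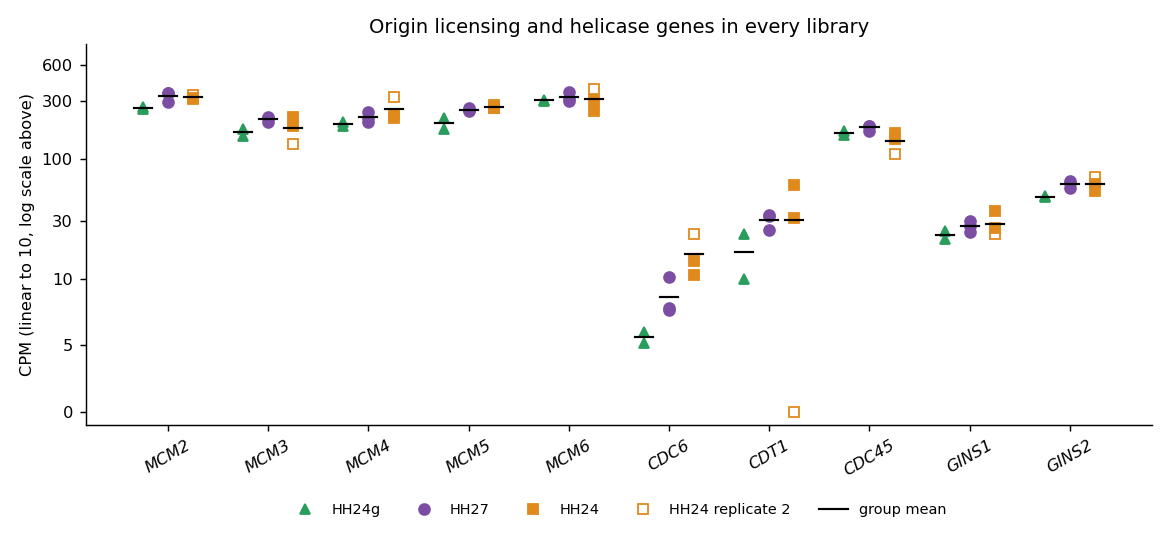
CPM of the 10 licensing and helicase genes in each library, with HH24g as triangles, HH27 as circles, HH24 as squares (replicate 2 open) and group means as bars. The axis is linear up to 10 CPM and logarithmic above. For MCM2 and MCM5 both triangles sit below all other points.

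CDC6, the loader of the MCM ring, was the member with the lowest level per length. It had 5.99 and 5.19 CPM in HH24g, 7.66, 7.77 and 10.4 CPM in HH27, and 13.9, 23.4 and 10.8 CPM in HH24. The groups did not overlap, with HH24g lowest and HH24 highest, but these values stand for 3 to 40 reads per library. Its log2 fold change was -0.70 (SE 0.31, 95% interval -1.40 to -0.0076, adjusted p = 0.284) in HH24g against HH27, -1.20 (SE 0.35, 95% interval -1.99 to -0.41, adjusted p = 0.240) in HH24g against HH24 and -0.50 (SE 0.29, 95% interval -1.17 to 0.17, adjusted p = 0.464) in HH27 against HH24. CDT1, the second licensing factor, had 9.98 and 23.5 CPM in HH24g, 34.1, 33.0 and 25.2 CPM in HH27, and 32.1, 0 and 59.7 CPM in HH24. The zero in HH24 replicate 2 allows up to 23.4 CPM at that depth (3 reads), and this limit covers counting error only. Both grafts lay below the 3 HH27 libraries, at -0.76 (SE 0.38, 95% interval -1.62 to 0.10, adjusted p = 0.355), and the grafts differed by more than 2-fold from each other. Against HH24 the value was -1.24 (SE 0.56, 95% interval -2.52 to 0.043, adjusted p = 0.457). The 5 other genes of the group (MCM3, MCM4, MCM6, GINS1 and GINS2) had log2 fold changes of -0.38 to -0.065 in HH24g against HH27.

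Beside the lower levels of this group in the grafts, the markers of other cell types were summed in each library. The 6 endothelial markers tested summed to 191 to 196 CPM in HH24g, 144 to 152 CPM in HH27 and 137 to 195 CPM in HH24. For the 3 leukocyte markers tested the sum was 46.7 to 47.9 CPM in HH24g, 31.1 to 35.6 CPM in HH27 and 31.2 to 38.5 CPM in HH24. The 5 ectodermal markers tested gave 332 to 417 CPM in HH24g, 379 to 485 CPM in HH27 and 265 to 370.2 CPM in HH24. The 4 erythroid markers tested, all globin genes, summed to 543 to 1015 CPM in HH24g, 301 to 1612 CPM in HH27 and 2728 to 3313 CPM in HH24. The 2 chondrogenic markers tested, SOX9, the transcription factor of cartilage precursors, and COL2A1, a collagen of cartilage, summed to 24.5 to 25.4 CPM in HH24g, 30.3 to 42.9 CPM in HH27 and 29.3 to 46.8 CPM in HH24. By these sums, the grafts stood above HH27 for endothelial and leukocyte markers and overlapped with it for ectodermal and erythroid markers. They lay below all 6 wild type libraries for the summed chondrogenic markers and above all 6 for the summed mesenchyme markers. Of the 6 endothelial markers, 5 were above and 1 below 0 in HH24g against HH27 (-0.71 to 0.62). All 3 leukocyte markers were above 0 there (0.44 to 0.65). In each of these 2 types, 2 markers were higher and 0 lower at an unadjusted p under 0.05 in limma, where 9.15% and 8.04% of all genes were. Of the 5 ectodermal markers, 4 were below and 1 above 0 in HH24g against HH27 (median -0.27, range -1.29 to 0.45). At an unadjusted p under 0.05 in limma, 2 were lower and 0 higher, where 8.04% and 9.15% of all genes were. The 4 erythroid markers were split, 2 above and 2 below 0 (-0.22 to 3.41). Against HH24, 1 erythroid marker was above and 3 below 0 (-2.12 to 3.94). Taken singly, the 6 mesenchyme markers were split, 3 above and 3 below 0 in HH24g against HH27 (log2 fold changes of -0.87 to 2.34). Against HH24, 4 were above and 2 below 0 (-0.79 to 1.09). SOX9 was called lower in HH24g against HH27, at a log2 fold change of -2.23 (SE 0.46, adjusted p = 0.0355), whereas COL2A1 was at 0.095 (SE 0.18, adjusted p = 0.841). The SOX9 value rests on few reads, 0 to 77 per library, with 10 or more in only 4 libraries. Of the other chondrogenic markers, MATN1 had at most 1 read in any library and ACAN reached 10 reads in only 1 library. The part of these cells in the result was not tested. SPI1, a defining leukocyte factor, had 0 to 2 reads and TAL1, an erythroid one, 0 to 7 reads per library. With haemoglobin, mitochondrial and rRNA genes removed, the licensing and helicase group again had 10 of 10 genes below 0 and 5 at an unadjusted p under 0.05. Other RNA of blood cells, and that of the other cell types, stayed in this fit, and its part was not tested.

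The remaining 12 S phase genes, those of strand synthesis, nucleotide supply and the G1/S cyclins, lay closer to 0. PCNA had 480.2 and 493 CPM in HH24g, 521, 612 and 511 CPM in HH27, and 450.5, 319.6 and 536 CPM in HH24. The grafts lay below HH27 and inside the range of HH24, at log2 fold changes of -0.14 (SE 0.12, 95% interval -0.40 to 0.12, adjusted p = 0.608) against HH27 and 0.058 (SE 0.14, 95% interval -0.26 to 0.38, adjusted p = 0.910) against HH24. POLA1, the catalytic subunit of the polymerase that starts each strand, had 311 and 355 CPM in HH24g, 347, 394 and 333 CPM in HH27, and 311, 413 and 352 CPM in HH24, with the groups overlapping in all 3 comparisons and intervals of -0.30 to 0.16 against HH27 and -0.30 to 0.25 against HH24. RFC3, a subunit of the loader of the clamp, had 152 and 163 CPM in HH24g, 148, 145 and 151 CPM in HH27, and 140.2, 109 and 148 CPM in HH24. It was the only S phase gene with both grafts above every HH27 and every HH24 library, with log2 fold changes of 0.093 (SE 0.085, 95% interval -0.10 to 0.29, adjusted p = 0.645) against HH27 and 0.16 (SE 0.11, 95% interval -0.085 to 0.40, adjusted p = 0.621) against HH24. FEN1, the nuclease that trims Okazaki fragments, had a log2 fold change of -0.32 (SE 0.12, 95% interval -0.58 to -0.053, adjusted p = 0.352) in HH24g against HH24, the only one of these 12 genes with an unadjusted p under 0.05 in any comparison of limma.

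The subunits of ribonucleotide reductase, which makes deoxynucleotides, differed little between HH24g and HH27. RRM1 had 674 and 653 CPM in HH24g, 675, 767 and 679 CPM in HH27, and 570.3, 476 and 671 CPM in HH24, and RRM2 had 415 and 427 CPM in HH24g, 431, 478 and 414 CPM in HH27, and 425, 273 and 421 CPM in HH24. HH24 replicate 2 was the lowest library for both. In HH24g against HH27 the log2 fold change was -0.074 (SE 0.090, 95% interval -0.28 to 0.13, adjusted p = 0.740) for RRM1 and -0.042 (SE 0.10, 95% interval -0.27 to 0.19, adjusted p = 0.879) for RRM2. In HH27 against HH24, RRM1 was at 0.22 (SE 0.10, 95% interval -0.013 to 0.45, adjusted p = 0.352). All 3 HH27 libraries lay above all HH24 libraries for RRM1, whereas for RRM2 these groups overlapped. CCNE2, a cyclin of S phase entry, had 52.9 and 51.6 CPM in HH24g, 51.4, 63.1 and 57.4 CPM in HH27, and 51.4, 23.4 and 57.7 CPM in HH24, and its partner kinase CDK2 had 109 and 107 CPM in HH24g, 125, 112 and 125 CPM in HH27, and 126, 85.8 and 121 CPM in HH24. For CCNE2 the groups overlapped in all comparisons. Both CDK2 values of HH24g lay just below all 3 of HH27, at -0.18 (SE 0.10, 95% interval -0.40 to 0.043, adjusted p = 0.406), and inside the range of HH24.

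Over all 22 S phase genes, 20 were below 0 in HH24g against HH27 (median -0.15), 5 had an unadjusted p under 0.05 with a lower level and 0 with a higher one, where 8.04% and 9.15% of all genes did, and 9 had both grafts below all HH27 libraries, with the opposite for RFC3, where 16.4% and 16.3% of all genes did. In HH24g against HH24, 16 were below 0 (median -0.16, but 0.012 over the 15 genes with 10 or more reads in every library), 4 (MCM5, CDC6, FEN1 and MCM2) had an unadjusted p under 0.05 with a lower level and 0 with a higher one, where 6.05% and 5.21% of all genes did, and the grafts lay below all HH24 libraries for 6 genes and above them for 1, where 10.9% and 16.2% of all genes did. In HH27 against HH24, 13 were above 0 (median 0.040), 0 had an unadjusted p under 0.05 in limma (1 higher with edgeR and with DESeq2), and 2 genes, CDC45 and RRM1, lay wholly above HH24 while CDC6 lay wholly below it. Over all genes, 7.22% had an unadjusted p under 0.05 with a higher and 8.13% with a lower level in HH27, and 13.7% lay wholly above and 9.94% wholly below HH24. Both HH24g comparisons use the same 2 graft libraries, and their counts are not independent of each other.

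Mitosis genes had somewhat higher values in HH27 than in HH24, with no gene past the adjusted threshold in limma over all 8 libraries. They were also higher in HH24g than in HH24 (21 of 24 above 0, median 0.14), while HH24g against HH27 had a median of -0.017. Both comparisons with HH24 use the same 3 HH24 libraries and are not independent of each other. A shift of these HH24 libraries and a difference between the stages cannot be told apart here. In HH27 against HH24, 18 of 24 had a log2 fold change above 0 (median 0.14, beside 0.026 and 52.9% above 0 over all genes). At an unadjusted p under 0.05, 9 had a higher level in HH27 and 0 a lower one, where 7.22% and 8.13% of all genes did, and edgeR gave 6 and DESeq2 8 higher. For 10 genes all 3 HH27 libraries lay above all 3 HH24 libraries and for 0 below, against 13.7% and 9.94% of all genes. The 9 genes were ANLN, BUB1B, KIF20A, PLK1, CCNB3, TOP2A, BUB1, KIF11 and TPX2, with log2 fold changes of 0.21 to 0.57 and a lowest adjusted p of 0.187. This count moved with the libraries used. It came to 0 when HH24 replicate 1 was left out, to 5 when HH27 replicate 2 was and to 6 when HH24 replicate 2 was. The summed level of the 4 erythroid markers was lower in all HH27 libraries (301 to 1612 CPM) than in all HH24 libraries (2728 to 3313 CPM). Singly, 3 of these 4 were below and 1 above 0, with log2 fold changes of -1.90 to 0.53. The summed ectodermal markers were higher in all HH27 libraries (379 to 485 CPM) than in all HH24 libraries (265 to 370.2 CPM). The summed mesenchyme markers were lower in all HH27 libraries (765 to 1065 CPM) than in all HH24 libraries (1169 to 1566 CPM). Taken singly, the 6 mesenchyme markers were split, 3 above and 3 below 0, with log2 fold changes of -2.11 to 0.90. With haemoglobin, mitochondrial and rRNA genes removed the count was again 9. The part of other RNA of blood cells, and of ectodermal and mesenchyme cells, was not tested.

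ANLN, the scaffold of the cleavage furrow, had 330.4 and 357 CPM in HH24g, 322, 343 and 304 CPM in HH27, and 247, 242 and 276 CPM in HH24. All HH24g and all HH27 libraries lay above all HH24 libraries. Its log2 fold change was 0.41 (SE 0.10, 95% interval 0.18 to 0.63, adjusted p = 0.167) in HH24g against HH24, 0.29 (SE 0.094, 95% interval 0.081 to 0.51, adjusted p = 0.187) in HH27 against HH24 and 0.11 (SE 0.080, 95% interval -0.069 to 0.29, adjusted p = 0.532) in HH24g against HH27. KIF20A, a kinesin of the central spindle, had 168 and 166 CPM in HH24g, 248, 189 and 181 CPM in HH27, and 125, 70.2 and 163 CPM in HH24. The order was HH27 above HH24g above HH24 with no overlap between groups, and HH24 replicate 2 was lowest with 9 reads. The log2 fold change was 0.57 (SE 0.21, 95% interval 0.10 to 1.04, adjusted p = 0.238) in HH27 against HH24, the highest of the mitosis list in that comparison, and -0.29 (SE 0.16, 95% interval -0.67 to 0.081, adjusted p = 0.418) in HH24g against HH27, the lowest of the list in that one. KIF11, the motor that pushes the spindle poles apart, had 239 and 271 CPM in HH24g, 294, 249.6 and 263 CPM in HH27, and 196, 234 and 245 CPM in HH24, at 0.29 (SE 0.12, 95% interval 0.0056 to 0.57, adjusted p = 0.321) in HH27 against HH24.

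**Figure D3:**
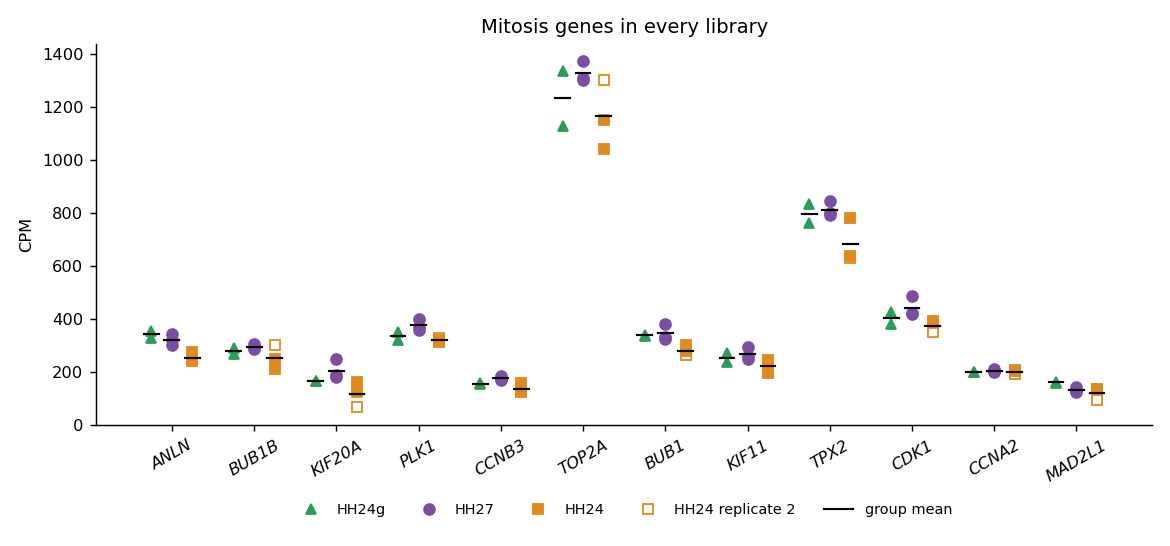
CPM in each library of the 9 mitosis genes with an unadjusted p under 0.05 in HH27 against HH24, in order of that p, followed by CDK1, CCNA2 and MAD2L1. HH24g is shown as triangles, HH27 as circles, HH24 as squares (replicate 2 open), and bars are group means. For ANLN all triangles and circles lie above the squares, and for CCNA2 the 3 groups coincide.

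The kinase PLK1, which acts at centrosomes and kinetochores, had 349.9 and 321 CPM in HH24g, 359, 400.1 and 369.6 CPM in HH27, and 319.9, 327 and 315 CPM in HH24. HH27 lay above HH24, at 0.22 (SE 0.083, 95% interval 0.035 to 0.41, adjusted p = 0.253), and the grafts reached from inside the range of HH24 to above it. TOP2A had 1337 and 1129 CPM in HH24g, 1302, 1310.0 and 1373 CPM in HH27, and 1152, 1302 and 1044 CPM in HH24, with the lowest HH27 and the highest HH24 library level to within 1 CPM, at 0.24 (SE 0.093, 95% interval 0.033 to 0.46, adjusted p = 0.262), and the grafts overlapping with HH24. The proliferation marker MKI67 had 721 and 552 CPM in HH24g, 952, 425 and 672 CPM in HH27, and 717, 343 and 524 CPM in HH24. Its libraries varied by more than 2-fold within HH27 and within HH24, the groups overlapped, and the interval was -0.46 to 1.00 for HH27 against HH24 and -0.78 to 0.50 for HH24g against HH27.

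For the spindle checkpoint and its target CDC20, all 5 genes tested (BUB1, BUB1B, BUB3, MAD2L1 and CDC20) were above 0 in HH24g against HH24, with a median of 0.24. Of these, 4 lay wholly above HH24, where 52.5% of all genes were above 0 and 16.2% lay wholly above HH24. TTK, which was grouped with the mitotic kinases and is not counted here, was at 0.16, and its groups overlapped. This direction was not particular to the checkpoint, since 21 of all 24 mitosis genes tested were above 0 there. In HH24g against HH27 the same 5 genes had a median of 0.016, with 4 above and 1 below 0. MAD2L1, which binds and holds back CDC20, had 159 and 164 CPM in HH24g, 125, 146 and 129 CPM in HH27, and 135, 93.6 and 135 CPM in HH24. Both grafts were the highest of the 8 libraries. The log2 fold change of MAD2L1 was 0.30 (SE 0.095, 95% interval 0.088 to 0.52, adjusted p = 0.143) against HH27 and 0.29 (SE 0.12, 95% interval 0.019 to 0.57, adjusted p = 0.412) against HH24, and it was the only mitosis gene with an unadjusted p under 0.05 in HH24g against HH27. BUB3 had 285 and 295 CPM in HH24g, 254, 269 and 239 CPM in HH27, and 224, 273 and 279 CPM in HH24, and both grafts again stood above all others, at 0.21 (SE 0.093, 95% interval -0.0020 to 0.42, adjusted p = 0.296) against HH27 and 0.20 (SE 0.11, 95% interval -0.055 to 0.46, adjusted p = 0.536) against HH24.

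BUB1, the kinase that recruits the checkpoint to kinetochores, had 342 and 338 CPM in HH24g, 334, 381 and 324 CPM in HH27, and 279, 265 and 301 CPM in HH24. HH24g and HH27 overlapped and both lay above HH24. The log2 fold change of BUB1 was 0.24 (SE 0.10, 95% interval 0.0100 to 0.46, adjusted p = 0.420) in HH24g against HH24 and 0.24 (SE 0.093, 95% interval 0.023 to 0.45, adjusted p = 0.284) in HH27 against HH24. BUB1B, its partner in the checkpoint complex, had 269.5 and 290.2 CPM in HH24g, 295, 305 and 288 CPM in HH27, and 212, 304 and 249 CPM in HH24. HH24 replicate 2 reached the level of HH27, so the stages overlapped, at 0.31 (SE 0.10, 95% interval 0.078 to 0.55, adjusted p = 0.201). Over 19 alternatives, deposited TPM without scaling set aside, the adjusted p of BUB1B in HH27 against HH24 ran from 0.0390 to 0.598. CDC20, the activator of the anaphase-promoting complex, had 237 and 231 CPM in HH24g, 221, 252 and 228 CPM in HH27, and 219, 172 and 216 CPM in HH24. Both HH24g and HH27 lay above HH24, at log2 fold changes of 0.12 (SE 0.10, 95% interval -0.11 to 0.36, adjusted p = 0.682) in HH24g against HH24 and 0.11 (SE 0.10, 95% interval -0.11 to 0.33, adjusted p = 0.640) in HH27 against HH24.

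The cyclins and kinases of mitotic entry differed among themselves in how far their libraries spread. CCNA2, the cyclin of S phase and G2, had 201 and 201 CPM in HH24g, 203, 212 and 201 CPM in HH27, and 207, 195 and 203 CPM in HH24. All 8 libraries lay between 195 and 212 CPM, and the log2 fold change was -0.024 (SE 0.071, 95% interval -0.19 to 0.14, adjusted p = 0.906) in HH24g against HH27, -0.029 (SE 0.086, 95% interval -0.22 to 0.17, adjusted p = 0.927) in HH24g against HH24 and -0.0044 (SE 0.080, 95% interval -0.19 to 0.18, adjusted p = 0.984) in HH27 against HH24. CDK1 had 380.3 and 427 CPM in HH24g, 422, 487 and 418 CPM in HH27, and 385, 351 and 392 CPM in HH24, with HH27 above HH24 at 0.17 (SE 0.10, 95% interval -0.045 to 0.39, adjusted p = 0.433) and the grafts overlapping with both. CCNB2, a mitotic cyclin, is a synonym of a gene that the RefSeq table lists as CCNB1, so the values may belong to either name. It had 203 and 258 CPM in HH24g, 225, 179.7 and 199 CPM in HH27, and 162, 319.6 and 238 CPM in HH24, where HH24 held both the lowest and the highest library and the interval for HH24g against HH27 was -0.20 to 0.59. CKS1B, a small subunit that binds the cyclin-dependent kinases, had 47.9 and 37.9 CPM in HH24g, 46.8, 32.0 and 36.9 CPM in HH27, and 39.6, 23.4 and 47.9 CPM in HH24, and its groups overlapped in all 3 comparisons.

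A few mitosis genes could not be judged. CENPF, a large kinetochore protein, had 247 and 423 CPM in HH24g, 310.4, 7.77 and 305 CPM in HH27, and 383, 0 and 437 CPM in HH24. It was near absent in HH27 replicate 2 (8 reads) and at 0 in HH24 replicate 2, whereas the other 6 libraries lay between 247 and 437 CPM, and the log2 fold change in HH24g against HH27 was 1.18 (SE 1.08, 95% interval -1.27 to 3.63, adjusted p = 0.646). That value was the highest of the mitosis list, and without HH27 replicate 2 the log2 fold change of CENPF was 0.11. ECT2, which activates the furrow GTPase, was at 0 in HH24 replicate 2 as well, against 101 to 152 CPM elsewhere. Over the whole mitosis list, 11 genes were above and 13 below 0 in HH24g against HH27 (median -0.017), with 1 gene higher and 0 lower at an unadjusted p under 0.05 (9.15% and 8.04% of all genes) and 3 genes wholly above and 3 wholly below HH27 (16.3% and 16.4% of all genes). In HH24g against HH24, 21 of 24 were above 0 (median 0.14, beside 0.020 and 52.5% above 0 over all genes), 3 (ANLN, MAD2L1 and BUB1) had an unadjusted p under 0.05 with a higher level and 0 with a lower one (5.21% and 6.05% of all genes), and 7 lay wholly above HH24 and 0 below (16.2% and 10.9% of all genes).

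The lists as a whole were compared within libraries, as a description with no test. S phase genes summed to 4024 and 3978 CPM in HH24g, 4394, 4688 and 4305 CPM in HH27, and 4159, 3859 and 4300.5 CPM in HH24. Mitosis genes summed to 7789 and 7920.1 CPM in HH24g, 8338, 7682 and 7881 CPM in HH27, and 7079, 6393 and 7408 CPM in HH24. For S phase genes the grafts lay below HH27 and inside the range of HH24, and for mitosis genes they lay inside HH27 and above HH24. The ratio of S phase to mitosis genes was 0.517 and 0.502 in HH24g, 0.527, 0.610 and 0.546 in HH27, and 0.588, 0.604 and 0.581 in HH24. Both grafts had the lowest ratios, also without CENPF and ECT2, when the ratio was 0.545 and 0.538 in HH24g, 0.556, 0.623 and 0.577 in HH27, and 0.634, 0.604 and 0.626 in HH24. Within the S phase list, the ratio of licensing and helicase genes to the other 12 was 0.532 and 0.526 in HH24g, 0.604, 0.571 and 0.596 in HH27, and 0.628, 0.762 and 0.580 in HH24. The grafts again had the lowest values and HH24 replicate 2, the shallow library, the highest.

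**Figure D4:**
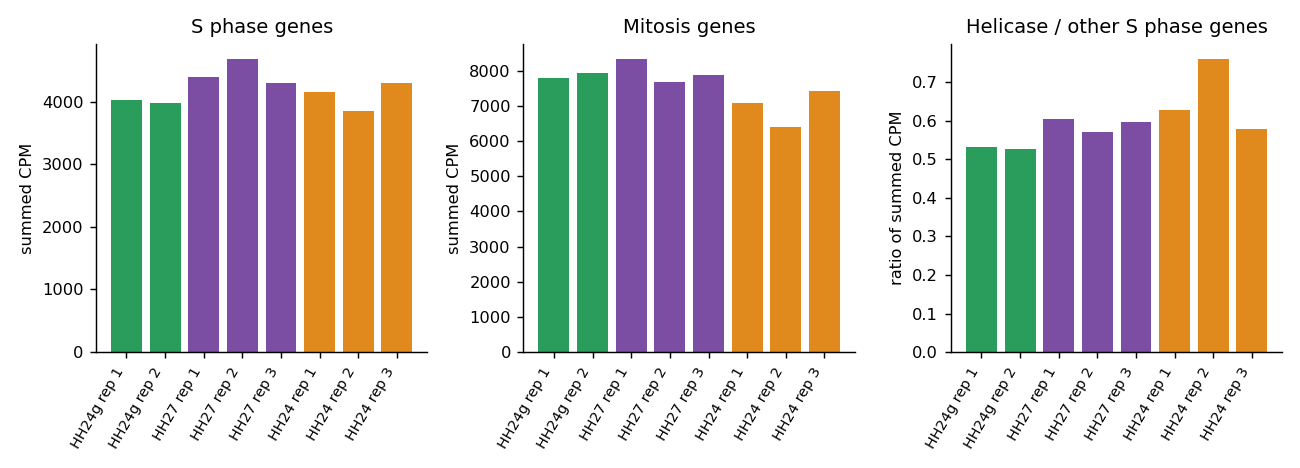
Summed CPM of the 22 S phase and the 24 mitosis genes, and the ratio of the 10 licensing and helicase genes to the other 12 S phase genes, in each library (bars, HH24g in green, HH27 in purple, HH24 in orange, axes from 0). The ratio was 0.532 and 0.526 in HH24g, and 0.571 or higher in every HH27 and HH24 library.

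Further genes of the same pathways, from lists of other replication and other mitosis genes, were counted in the same fit. Of 37 other replication genes tested, 0 were called in any comparison, and in HH24g against HH27 26 were below 0 (median -0.10), with 6 lower and 2 higher at an unadjusted p under 0.05 (8.04% and 9.15% over all genes). In HH24g against HH24 they were split, 17 above and 20 below 0 (median -0.012), with 0 higher and 3 lower at such a p (5.21% and 6.05% over all genes), and 3 lay wholly above and 0 wholly below HH24 (16.2% and 10.9%), whereas 6 of the 22 S phase genes lay wholly below it. In HH27 against HH24, 26 of the 37 were above 0, with 5 higher and 2 lower (7.22% and 8.13%). Of 58 other mitosis genes tested, 0 were called, and in HH27 against HH24 47 were above 0 (median 0.13), with 7 higher and 1 lower (7.22% and 8.13%). In HH24g against HH24, 43 of the 58 were above 0, with 8 higher and 0 lower (5.21% and 6.05%). In HH24g against HH27, 37 of the 58 were below 0 (median -0.064), with 3 higher and 5 lower (9.15% and 8.04%), and 4 lay wholly above and 14 wholly below HH27 (16.3% and 16.4%). AURKB, the kinase of the chromosomal passenger complex, was named after its values were seen and had 157 and 169 CPM in HH24g, 189, 226 and 178 CPM in HH27, and 101, 117 and 122 CPM in HH24. No group overlapped with another, HH27 was highest, and the log2 fold change in HH27 against HH24 was 0.77 (SE 0.14, adjusted p = 0.0335), past the limit on p but not that on fold change, the only gene of all 4 lists of which this held in limma.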

How the data were processed

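Total RNA of 8 libraries was sequenced after ribosomal RNA depletion. For each library the authors deposited estimated counts per RefSeq transcript, which need not be whole, and TPM values computed from them. The submitters' processing notes name HISAT2 2.0.2, Salmon, limma and the build galGal4. Of 57399 transcripts per table, 26660 (46.45%) matched a gene of the GRCg7b RefSeq table by accession, and CCNB2 was matched as a synonym of the gene listed there as CCNB1. Reads of other transcripts stayed out of library sizes. Estimated counts were summed per gene and rounded. Of these genes, 9062 passed filterByExpr of edgeR, with a minimum count of 10 and a minimum total of 15. TMM scaling, voom and limma with 1 mean per group over all 8 libraries gave the adjusted p-values (Benjamini-Hochberg), except where another fit is named. The TPM values were used only for levels between genes and as an alternative. According to the methods, 1 of the HH24 and HH24g samples was left out after quality checks. The series holds 2 HH24g and 3 HH24 libraries, and the labels do not say whether a library left out is among them. All 8 were kept, so the comparisons with HH24 may include a library that the study did not use.

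Members and lists were chosen with earlier results of these data known. Values per library are given for 28 genes: central genes of each role and, in each comparison and list, the 2 members with the lowest p and those with the highest and lowest log2 fold change. Replicates of each group differed by more than sampling noise (chi-square per degree of freedom 4.63 or more). The alternatives were other tests (edgeR quasi-likelihood, DESeq2), filters, scalings, sample weights, only the groups compared, a replicate block, fits from which the haemoglobin, mitochondrial and rRNA genes were removed, and fits without each library. The method was run on simulated data with changes of 2-fold or more. Smaller differences, such as those of most members, were not simulated. Tests ran in limma 3.58.1, edgeR 4.0.16 and DESeq2 1.42.0 under R 4.3.3. Tables and plots were made with pandas 2.3.3, matplotlib 3.10.9 and scipy 1.17.1 under Python 3.11.15.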

Additional observations from a re-analysis of the deposited data

Results flagged for a closer look

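A single transcript that matched no gene, and that no comparison used, held 74.3% of all reads in HH24 replicate 2 (95% Wilson interval 74.3 to 74.4%, counting error only), against 8.62% to 32.9% in the other 7 libraries. The 46 members held 1315 reads in that library.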

How the results depend on the processing

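No member was called under any of 21 settings in any comparison. The direction of the 28 genes given by library was kept in 525 of 554 values for HH24g against HH27, 520 of 554 for HH24g against HH24 and 506 of 554 for HH27 against HH24. On log2(TPM + 1), where TPM totals include the unmatched transcripts, the median over all genes was 0.13 in HH24g against HH27, 1.87 in HH24g against HH24 and 1.74 in HH27 against HH24, and the median log2 fold change of S phase genes was -0.0097 in HH24g against HH27, 2.04 in HH24g against HH24 and 2.11 in HH27 against HH24, and that of mitosis genes was 2.50 in HH24g against HH24 and 2.37 in HH27 against HH24, and 0 helicase genes were lower at an unadjusted p under 0.05 in HH24g against HH27. With TMM factors on TPM, added after seeing the data, that count was 2. With 10 or more reads required in every library, fewer genes were tested: the S phase median in HH24g against HH24 was 0.012 over 15 genes, 6 of 6 helicase genes were below 0 in HH24g against HH27, and 3 of them were lower at an unadjusted p under 0.05. Leaving out each HH27 or HH24 library gave 4 or 5 such helicase genes. Fits without an HH24g library left 1 graft library, so their helicase counts are not given. Leaving out each library gave 0 to 8 mitosis genes higher at an unadjusted p under 0.05 in HH27 against HH24. All alternatives for these counts were added after seeing the data. The replicate numbers are not said to pair the samples, and the deviations of same-numbered samples correlated at r = -0.029 to 0.040, where not every sample correlated best with its own number. The deviations of the 2 graft libraries are mirror images of each other. These correlations therefore cannot decide whether grafts and hosts were paired. With the replicate number as a block 0 members were called, the helicase count was 4 and the mitosis count 7. Depth limits CDC6, CDT1 and all values of HH24 replicate 2.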
